A study of Sus scrofa with 4 samples.

Results

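The transcripts examined here encode proteins that copy DNA and proteins that repair it, in porcine oocytes at metaphase of the second meiosis (M II). The genes were selected by the spelling of their symbols, from prefixes of replication and repair families such as RFC, RPA, POL, PRIM, TOP, MSH, RAD, XRCC and ERCC together with PCNA, and not by a threshold on measured values. The cohesin gene RAD21 was left out by the same rule. The rule took 21 of the 4381 listed symbols, namely 9 of the replication fork, 2 of base excision and single-strand break repair, 2 of mismatch repair, 1 of meiotic crossing over, 1 of nucleotide excision repair, 5 of recombination and end joining and 1 of damage tolerance. The MCM helicase, the origin recognition complex and the Fanconi anaemia genes were not analysed here.

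RNA was sequenced from 2 libraries of control oocytes and 2 libraries of SIRT6-inhibited oocytes. Cumulus-oocyte complexes from abattoir ovaries spent 42 to 44 h in maturation culture, and the SIRT6-inhibited group received 100 μM SIRT6-IN-1, a cell-permeable small molecule that blocks the nuclear deacetylase SIRT6. The inhibitor was dissolved in DMSO, and whether control medium held DMSO is not given in the sources used here. The study's methods give 100 pooled oocytes per group, and describe column extraction, fragmentation and random-primed libraries enriched by PCR. The labels name the same library kit after amplification by Smart-seq2. Reads enriched by PCR are not independent molecules, so exact binomial intervals of read shares cover at most counting error and may be too narrow. Intervals from edgeR also use the spread between libraries. No source says that libraries of a group came from separate cultures, so the p-values measure only the spread between these libraries, which may be technical. In pooled oocytes, fewer oocytes that hold a transcript and less of it in each oocyte cannot be told apart.

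Control libraries 1 and 2 held 4646129 and 3405960 counts on the listed genes, and SIRT6-inhibited libraries 1 and 2 held 3239200 and 4972602. Markers of the oocyte were present throughout. All 14 of the 20 listed oocyte markers that the table holds had counts, they took between 7.63% and 8.34% of each library, and the nuclear import receptor KPNA7 had the most counts. In edgeR's test 2 of the 14 were lower and 0 higher at an unadjusted p-value under 0.05, namely the growth factor GDF9 and the zona pellucida gene ZP2. Over all 2387 tested genes 5.99% were lower and 3.06% higher at that threshold. Of the 18 cumulus and granulosa cell markers the table holds 17, and TNFAIP6, FSHR, LHCGR, AMH, AMHR2 and EFNB2 had 0 counts in every library. The summed counts of these 17 markers were 656 and 649 for control and 258 and 905 for SIRT6-inhibited oocytes, and the matrix proteoglycan VCAN had the most of them. The red blood cell marker HBB had 0 counts in each library.

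At a replication fork a helicase opens the duplex, primase lays down short RNA primers, and DNA polymerases extend them while held on the template by PCNA, a ring-shaped clamp that slides along DNA. PCNA also recruits mismatch, excision and damage tolerance proteins, which ties replication to repair. Oocytes do not replicate their DNA between the meiotic divisions, yet they are known to store maternal mRNAs whose products serve the cleavage divisions after fertilization. SIRT6 is known for its part in the repair of double-strand breaks and of damaged bases, and the study stained γH2A.X, a mark of DNA breaks, in these oocytes. The RNA data bear on a separate question, namely whether transcripts of the replication and repair machinery differ between the groups.

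One member of the set differed between groups at an unadjusted threshold. TOP2A, which encodes the topoisomerase that untangles chromosomes for condensation and segregation, was 2.58-fold lower in SIRT6-inhibited than in control oocytes in the fit of 2 libraries against 2. The other 20 genes, PCNA among them, did not pass. In edgeR's quasi-likelihood test, 1 of 21 genes was lower and 0 were higher at an unadjusted p-value under 0.05, where the shares over all 2387 tested genes were 5.99% lower and 3.06% higher. After Benjamini-Hochberg adjustment over all tested genes 0 of 21 passed in edgeR, beside 0% of all tested genes, and 0 of 21 passed in DESeq2 and in limma-voom, beside 1.68% and 0% of all genes with an adjusted p-value in those tools. TOP2A passed adjustment in edgeR when genes with low counts were kept (adjusted p = 0.0119), a fit in which 43 genes of the whole table passed. Over all alternatives its adjusted p-value ran from 0.000897 to 0.95.

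Every one of the 21 genes had reads and passed the filter on low counts, as 54.5% of all listed genes did. The fitted log2 fold changes, SIRT6-inhibited over control, were negative for 12 and positive for 9, with a median of -0.15. Over all tested genes 1261 were negative and 1126 positive, with a median of -0.04. Both SIRT6-inhibited libraries lay below both control libraries for 4 of the 21 genes (TOP2A, PRIM1, RAD52 and RAD54L), where 22.2% of all tested genes did so. For PRIM1 that direction was fixed by the filter on low counts, which it passed only through the control libraries. The SIRT6-inhibited libraries lay above both control libraries for 3, PRIM2 and ATM among them, where 17.9% of all tested genes did so. Under library totals alone 5 of the 21 lay below and 3 above, beside 25.3% and 14.8% of all tested genes. The median of the set was 0.02 without SIRT6-inhibited library 2, and 0.01 when at least 10 counts were required in every library, which drops PRIM1, ERCC1 and RFC3, so its sign depends on the processing.

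**Figure D1:**
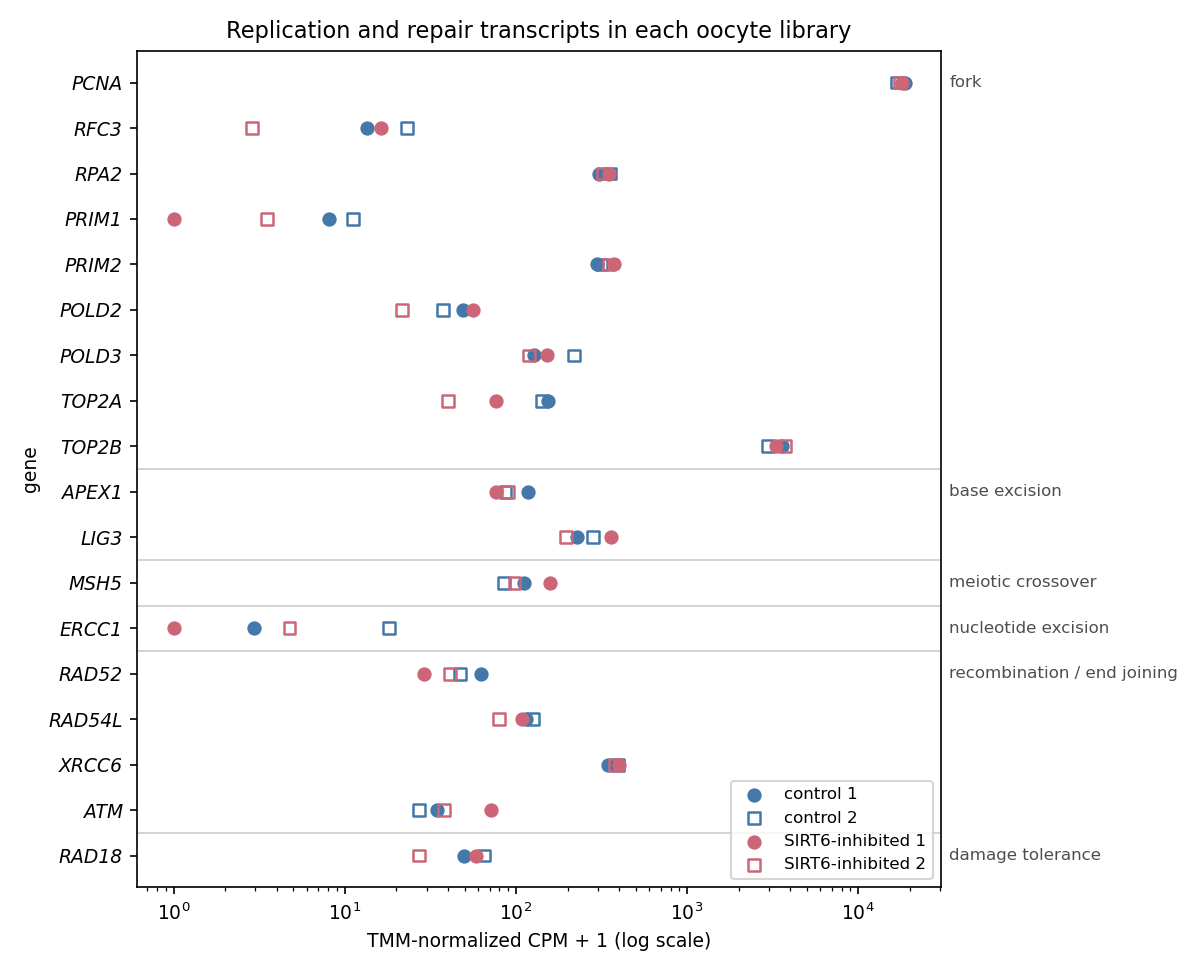
Level of 18 of the genes in each library, as TMM-normalized CPM plus 1 on a log axis, with genes ordered by role, control libraries in blue, SIRT6-inhibited libraries in red, replicate 1 as filled circles and replicate 2 as open squares. PCNA and TOP2B lie closely together in all 4 libraries, TOP2A separates by group, and PRIM1 and ERCC1 reach 0 in SIRT6-inhibited library 1.

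Gene length was not accounted for, so levels are compared between libraries and not between genes. The precision of these comparisons differed widely between genes. The standard error of the log2 fold change ran from 0.085 for PCNA to 2.25 for ERCC1, with a median of 0.32 over the 21 genes and of 0.51 over all tested genes. The 95% interval lay inside a 2-fold difference either way for 8 of the 21, among them PCNA, RPA2, PRIM2, TOP2B, LIG3 and XRCC6. For these genes a difference of 2-fold or more falls outside the interval. The same held for 32.5% of all tested genes. For the other genes apart from TOP2A, a p-value above the threshold does not show that the groups were alike.

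**Figure D2:**
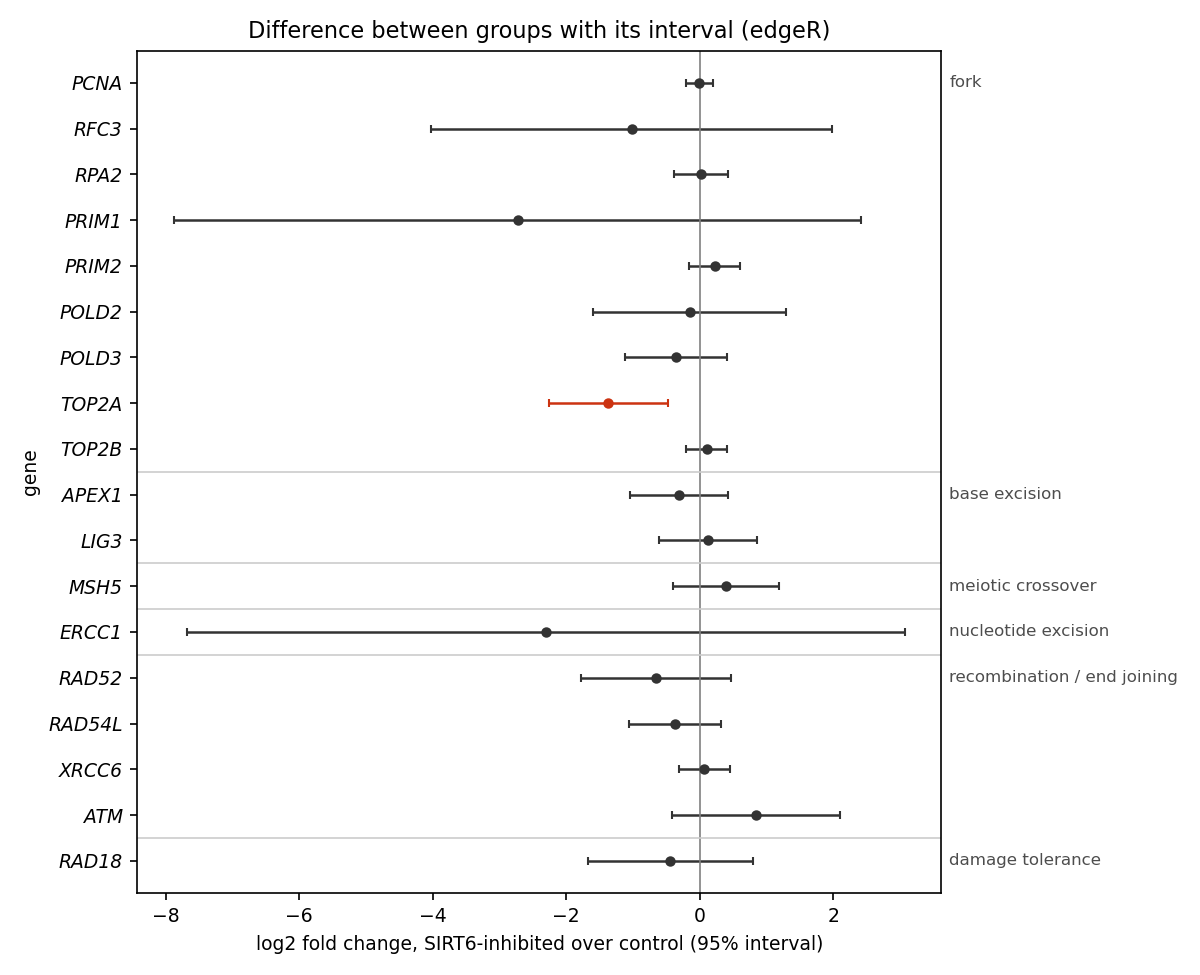
Fitted log2 fold change of 18 of the genes, SIRT6-inhibited over control, with its 95% interval from edgeR's quasi-likelihood fit. TOP2A, in red, is the gene whose interval lies wholly below 0, from -2.26 to -0.48, and the intervals of PRIM1, ERCC1 and RFC3 are the widest.

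PCNA encodes the sliding clamp. In the Sscrofa11.1 RefSeq annotation it lies at chr17:14137746-14142584 and overlaps no other annotated gene. Its counts were 86463 and 59993 in control and 57650 and 84333 in SIRT6-inhibited oocytes, replicate 1 first. Scaled to a common library size with the trimmed mean of M-values (normalized CPM), the 4 libraries held 18657, 16878, 17900 and 17554. The SIRT6-inhibited libraries both lay between the control libraries, so the groups overlapped. The control libraries differed 1.11-fold from each other and the SIRT6-inhibited libraries 1.02-fold. With a standard error of 0.085, the fitted log2 fold change was -0.0033 (edgeR adjusted p = 0.996) and its 95% interval ran from -0.21 to 0.20, or 0.866-fold to 1.15-fold. PCNA took 1.86% and 1.76% of the control counts and 1.78% and 1.70% of the SIRT6-inhibited counts. Under library totals alone its log2 fold change was -0.06, and it turned positive under RLE scaling (0.02), so no direction can be given.

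The genes of proteins that work beside PCNA at the fork differed in counts and in precision. RPA2 encodes a subunit of the protein that coats single-stranded DNA. It had 304 and 353 normalized CPM in control and 347 and 321 in SIRT6-inhibited oocytes, values that overlapped fully, and its log2 fold change was 0.02 (95% interval -0.39 to 0.43), which turned to -0.04 under library totals alone. PRIM2, the large regulatory subunit of primase, had 298 and 315 normalized CPM in control and 371 and 346 in SIRT6-inhibited oocytes. Both SIRT6-inhibited values were above both control values, with a log2 fold change of 0.23 (95% interval -0.16 to 0.61, edgeR adjusted p = 0.820).

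PRIM1, the catalytic subunit of primase, had few counts. Control oocytes gave 33 and 36 and SIRT6-inhibited oocytes 0 and 12, which are 7.12, 10.1, 0 and 2.50 normalized CPM. Both SIRT6-inhibited libraries were thus lower, and the 0 allows up to 3 counts, or 0.931 normalized CPM. PRIM1 passed the filter on low counts only through the control libraries, so its direction was fixed by the filter. Fewer genes had counts in the SIRT6-inhibited libraries (2277 and 2320) than in the control libraries (2411 and 2689), although SIRT6-inhibited library 2 is the deepest. The part of this difference in the low counts of PRIM1, ERCC1 and UBE2B was not tested. The fitted log2 fold change was -2.73 with a standard error of 2.15 (95% interval -7.88 to 2.42, edgeR adjusted p = 0.873), and it had an unadjusted p-value under 0.05 only when SIRT6-inhibited library 2 was left out. RFC3, a subunit of the complex that loads PCNA onto DNA, had 58 and 78 counts in control and 49 and 9 in SIRT6-inhibited libraries. SIRT6-inhibited library 1 lay between the control libraries and only library 2 was low, and the SIRT6-inhibited libraries differed 8.12-fold from each other in normalized CPM. Its log2 fold change was -1.02 (standard error 1.26), and it had an unadjusted p-value under 0.05 only when SIRT6-inhibited library 1 was left out. With single libraries left out the log2 fold change of RFC3 ran from -3.18 without that library to -0.18 without SIRT6-inhibited library 2. RFC3 also overlaps another annotated gene, LOC102159559, so without a stated strand setting its count is uncertain.

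POLD2 and POLD3 encode accessory subunits of DNA polymerase delta, which PCNA holds on the template. POLD2 had 47.7 and 36.3 normalized CPM in control and 55.3 and 20.6 in SIRT6-inhibited oocytes. POLD3 had 126 and 218 in control and 152 and 119 in SIRT6-inhibited oocytes. Neither pair of groups separated, with log2 fold changes of -0.15 (95% interval -1.60 to 1.30) for POLD2 and -0.35 (95% interval -1.11 to 0.42) for POLD3. The value for POLD2 ran from -1.03 without SIRT6-inhibited library 1 to 0.39 without SIRT6-inhibited library 2. That for POLD3 ran from -0.70 without control library 1 to 0.09 without control library 2, so neither direction is steady. Read against each other within a library, POLD2 made up 27.4% and 14.3% of the POLD2 and POLD3 reads of control replicates 1 and 2, and 26.7% and 14.8% for the SIRT6-inhibited replicates 1 and 2. This share, which does not depend on scaling, was higher in replicate 1 than in replicate 2 of both groups and was about equal between groups, and no source says that libraries with the same number were made together.

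TOP2A and TOP2B encode the type II topoisomerases, which pass one duplex through another. TOP2A is known as the form of dividing cells and TOP2B as the form that non-dividing cells also use. In Sscrofa11.1 TOP2A lies at chr12:22001300-22028452 and TOP2B at chr13:12507738-12575042, and neither overlaps another annotated gene. TOP2A counts were 707 and 503 in control oocytes and 242 and 188 in SIRT6-inhibited oocytes. These were 153, 142, 75.1 and 39.1 normalized CPM, or a mean of 147 ± 7.81 (SD, n = 2) for control and of 57.1 ± 25.5 (SD, n = 2) for SIRT6-inhibited oocytes. Both SIRT6-inhibited libraries were below both control libraries, and they differed 1.92-fold from each other where the control libraries differed 1.08-fold. The log2 fold change was -1.37 (standard error 0.37, 95% interval -2.26 to -0.48, edgeR unadjusted p = 0.00860 and adjusted p = 0.460).

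TOP2B did not follow TOP2A. It had 3583 and 2955 normalized CPM in control and 3308 and 3721 in SIRT6-inhibited oocytes, values that overlapped, with a log2 fold change of 0.10 (95% interval -0.20 to 0.41, edgeR adjusted p = 0.964). The value for TOP2B turned to -0.03 without control library 2. Of the reads on both genes, TOP2A held 4.08% and 4.57% in control oocytes but 2.22% and 1.04% in SIRT6-inhibited oocytes. The exact binomial 95% intervals of these shares treat reads as independent and cover at most counting error. They ran from 3.79% to 4.98% over the control libraries and from 0.898% to 2.52% over the SIRT6-inhibited libraries. The shares separate the groups whatever scaling is used. The smallest p-value of an exact permutation test on 2 libraries per group, both sides counted, is 0.333, so the shares were not tested.

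**Figure D3:**
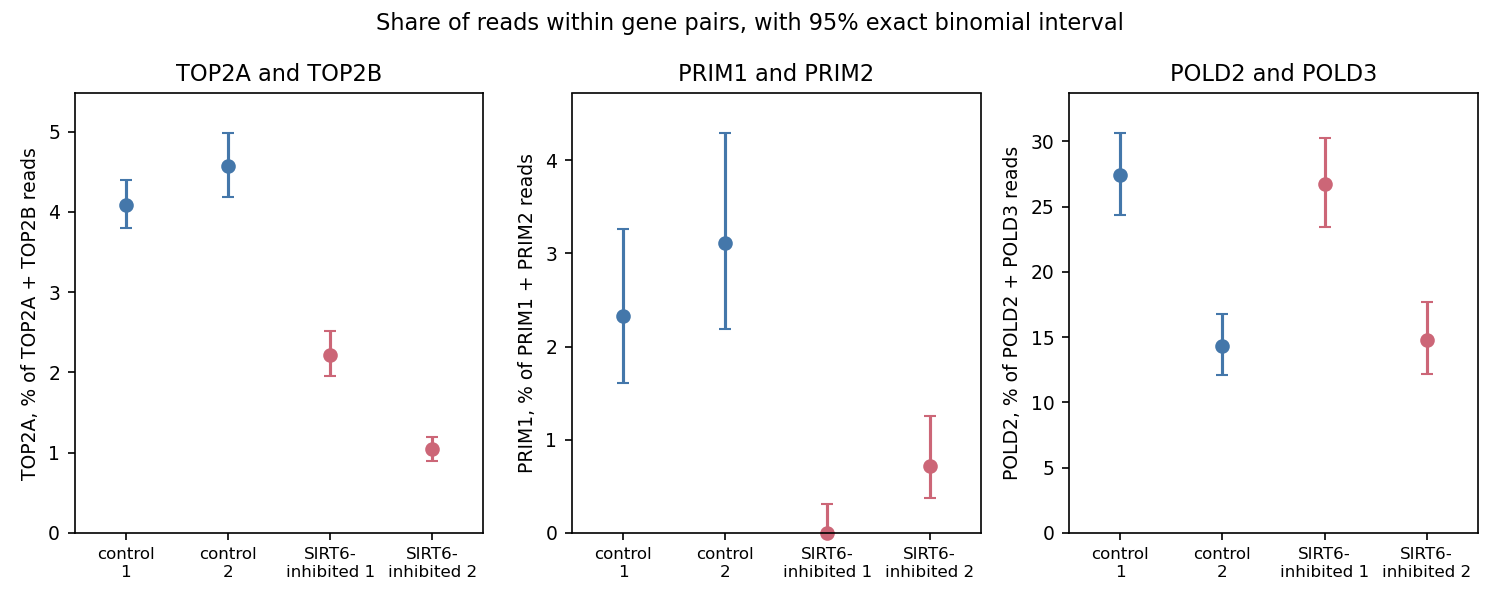
Share of reads that fall on the first gene of each pair in each library, with exact binomial 95% intervals, for TOP2A with TOP2B, PRIM1 with PRIM2 and POLD2 with POLD3. TOP2A holds 4.08% and 4.57% in control libraries against 2.22% and 1.04% in SIRT6-inhibited libraries. PRIM1 passed the filter on low counts only through the control libraries, so its lower share in SIRT6-inhibited libraries was fixed by the filter. POLD2 differs between replicate numbers rather than between groups.

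The direction of TOP2A was the same in each of 12 other fits. These refit the counts by which TOP2A was singled out, so they are no independent support. In the fits with all 4 libraries, unadjusted p-values of TOP2A from edgeR, DESeq2 or limma ran from 8.99e-05 to 0.00938. With single libraries left out its log2 fold change ran from -1.91 without SIRT6-inhibited library 1 to -0.97 without SIRT6-inhibited library 2. TOP2A is also high in dividing somatic cells, so other markers of such cells are given beside it. Oocytes also use these markers, so their levels do not tell whether such cells were present. CCNA2, which encodes cyclin A2, had 2038 and 1656 normalized CPM in control and 2049 and 2132 in SIRT6-inhibited oocytes and did not share the pattern of TOP2A. CDK1, the kinase that drives entry into division, had 28.5 and 58.5 normalized CPM in control and 22.4 and 1.46 in SIRT6-inhibited oocytes, both of the latter below both of the former. The cumulus marker VCAN had 82.6 and 136 in control and 38.8 and 142 in SIRT6-inhibited oocytes, values that overlapped. Of the 6 cumulus and granulosa cell markers tested, 0 passed in edgeR at an unadjusted p-value under 0.05, beside 5.99% lower and 3.06% higher over all tested genes. Of these markers 5 had a negative and 1 a positive log2 fold change. PTGS2, one of the 5, had 22 and 12 counts in control and 0 in both SIRT6-inhibited libraries, and since it passed the filter on low counts only through the control libraries, its direction was fixed by the filter. INHBA had 34.7 and 26.7 normalized CPM in control and 19.3 and 21.2 in SIRT6-inhibited oocytes. CYP11A1 went the other way, with 0 and 9 counts in control and 13 and 56 in SIRT6-inhibited libraries. Of the oocyte markers, GDF9 was also lower in both SIRT6-inhibited libraries, with 1322 and 2986 normalized CPM in control and 977 and 393 in SIRT6-inhibited oocytes (log2 fold change -1.65, 95% interval -2.85 to -0.46). ZP2 had 3707 and 4327 in control and 3417 and 2784 in SIRT6-inhibited oocytes (log2 fold change -0.37, 95% interval -0.70 to -0.04). The part of cumulus cells, of dividing somatic cells, or of what moves with GDF9 and ZP2, in the TOP2A result was not tested.

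**Figure D4:**
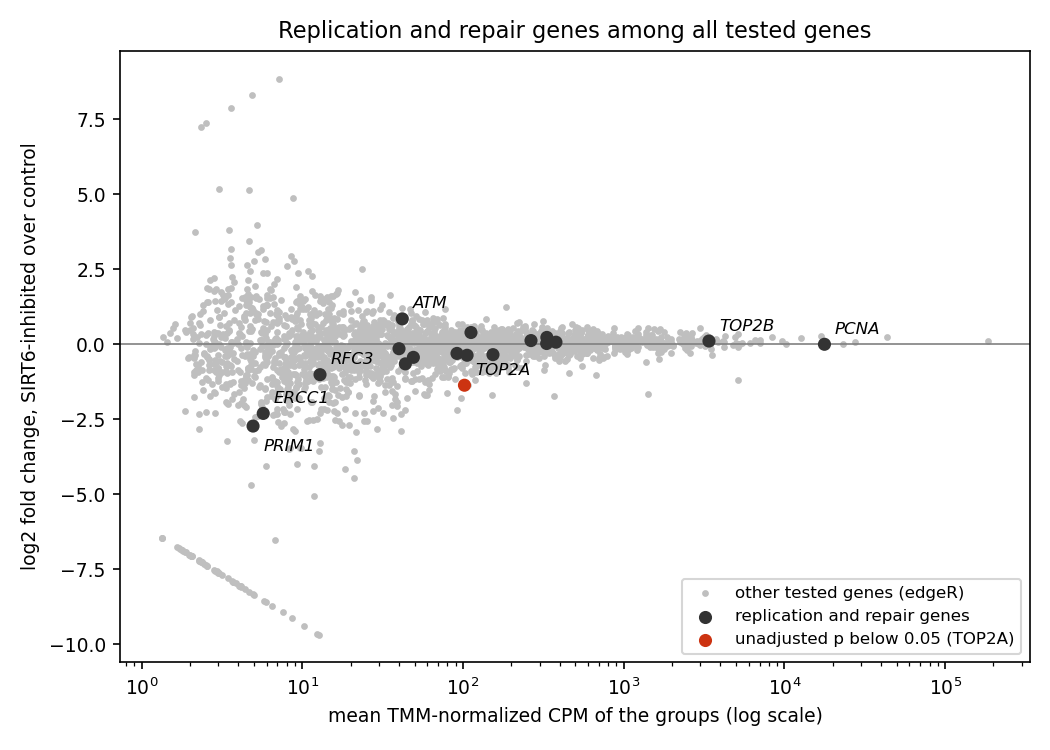
Log2 fold change, SIRT6-inhibited over control, against mean TMM-normalized CPM of the groups on a log axis, for all 2387 tested genes in grey and 18 replication and repair genes in black, with TOP2A in red. The scatter of all genes narrows from left to right, PCNA and TOP2B lie near 0 in the narrow part, and PRIM1, ERCC1 and RFC3 lie in the wide part.

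Base excision repair removes damaged bases, which arise among others from reactive oxygen species. APEX1, the endonuclease that cuts the DNA where a base has been removed, had 117 and 85.8 normalized CPM in control and 75.4 and 88.5 in SIRT6-inhibited oocytes. The groups overlapped through SIRT6-inhibited library 2, with a log2 fold change of -0.31 (95% interval -1.04 to 0.42, edgeR adjusted p = 0.939). The log2 fold change of APEX1 ran from -0.52 without control library 2 to -0.07 without control library 1. Reads of APEX1 are uncertain because the gene overlaps OSGEP in the annotation. LIG3, the ligase that seals the repaired strand, had 226 and 281 normalized CPM in control and 357 and 195 in SIRT6-inhibited oocytes. The SIRT6-inhibited libraries were the highest and the lowest of the 4, and the log2 fold change of 0.12 (95% interval -0.61 to 0.85) turned to -0.39 without SIRT6-inhibited library 1.

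MSH5 stabilizes crossover intermediates, which join homologous chromosomes in meiosis. It had 110 and 84.1 normalized CPM in control and 157 and 97.0 in SIRT6-inhibited oocytes. Its libraries overlapped, with a log2 fold change of 0.39 (95% interval -0.40 to 1.18), which turned to -0.005 without SIRT6-inhibited library 1.

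ERCC1, part of the nuclease that cuts beside bulky lesions in nucleotide excision repair, had few counts, as PRIM1 did. There were 9 and 61 counts in control and 0 and 18 counts in SIRT6-inhibited libraries. The control libraries differed 8.84-fold from each other in normalized CPM, more than the groups did, so that the groups overlapped. The log2 fold change was -2.31 and its standard error 2.25 (edgeR adjusted p = 0.934), and no difference was detectable. With single libraries left out it ran from -0.05 without control library 2 to -8.19 without SIRT6-inhibited library 2, where the remaining SIRT6-inhibited library has 0 counts, so that the fitted value is no measure of size, and the unadjusted p-value in edgeR was 0.0312. ERCC1 also overlaps CD3EAP, so its count is uncertain. RAD18, the ubiquitin ligase that marks PCNA at stalled forks, had 48.8 and 64.1 normalized CPM in control and 57.4 and 26.0 in SIRT6-inhibited oocytes. Only SIRT6-inhibited library 2 was low, and the log2 fold change was -0.44 (95% interval -1.67 to 0.80). The value for RAD18 turned to 0.02 without that library and was -1.12 without SIRT6-inhibited library 1.

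Double-strand breaks are repaired by recombination with an intact copy or by joining of the ends. XRCC6 encodes Ku70, which binds free ends for end joining. It had 345 and 394 normalized CPM in control and 398 and 377 in SIRT6-inhibited oocytes, values that overlapped. The log2 fold change of 0.07 (95% interval -0.32 to 0.45) turned to -0.03 without control library 1.

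RAD52 and RAD54L encode proteins of homologous recombination and were lower in both SIRT6-inhibited libraries, without passing the test. RAD52 had 61.3 and 45.9 normalized CPM in control and 27.9 and 40.0 in SIRT6-inhibited oocytes, a log2 fold change of -0.66 (95% interval -1.78 to 0.47, edgeR adjusted p = 0.820). RAD54L had 114 and 125 in control and 107 and 78.3 in SIRT6-inhibited oocytes, a log2 fold change of -0.37 (95% interval -1.05 to 0.32, edgeR adjusted p = 0.867). With single libraries left out the log2 fold change ran from -0.94 to -0.428 for RAD52 and from -0.614 to -0.163 for RAD54L. In the annotation RAD52 overlaps WNK1 and RAD54L overlaps LRRC41, so their counts are uncertain. ATM encodes the kinase that signals double-strand breaks and phosphorylates H2A.X. It had 33.7 and 26.2 normalized CPM in control and 70.8 and 36.8 in SIRT6-inhibited oocytes, a log2 fold change of 0.84 (95% interval -0.42 to 2.10, edgeR adjusted p = 0.745). Both SIRT6-inhibited libraries were higher, but library 2 only slightly, and ATM had an unadjusted p-value under 0.05 only when that library was left out. Over the 5 genes of recombination and end joining the median log2 fold change was 0.07, and it was -0.03 without control library 1 and -0.15 without control library 2. Over the 9 fork genes it was -0.15, and with single libraries left out it ran from -0.54 without SIRT6-inhibited library 1 to 0.01 without SIRT6-inhibited library 2, so neither median has a steady sign.

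Other replication and repair genes that the spelling rule does not reach were read from a list of 109 symbols. The table holds 21 of these and 20 were tested. In edgeR's test 2 were lower (SPO11 and UBE2B) and 0 were higher at an unadjusted p-value under 0.05, beside the same 5.99% and 3.06% over all tested genes. UBE2B passed the filter on low counts only through the control libraries, so its direction was fixed by the filter and it lends no support. After adjustment over all tested genes 0 passed. The median log2 fold change of the 20 was 0.11, with 7 negative and 13 positive. Among those with many counts, TYMS and BLM are given as examples, chosen after their values were seen. TYMS, which makes the thymidine nucleotide for DNA synthesis, had 4231 and 3773 normalized CPM in control and 4054 and 4525 in SIRT6-inhibited oocytes (95% interval of the log2 fold change -0.16 to 0.36). BLM, the Bloom helicase of recombination, had 647 and 690 in control and 721 and 734 in SIRT6-inhibited oocytes (95% interval of the log2 fold change -0.17 to 0.42).

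SPO11 encodes the enzyme that makes the programmed breaks of early meiosis and is a distant relative of a topoisomerase. It had 83 and 155 counts in control and 13 and 26 counts in SIRT6-inhibited libraries, which are 17.9, 43.6, 4.04 and 5.41 normalized CPM. Both SIRT6-inhibited libraries were lower, and the fitted log2 fold change was -2.69, with standard error 0.93 (95% interval -4.91 to -0.48, edgeR adjusted p = 0.496). In limma-voom its log2 fold change was -2.41 and its unadjusted p-value 0.10. In edgeR without control library 2 it was -1.92 with an unadjusted p-value of 0.295, and with single libraries left out it ran from -3.20 to -1.92. UBE2B, the ubiquitin-conjugating enzyme that works with RAD18 on PCNA, had 20 and 21 counts in control and 0 in both SIRT6-inhibited libraries. The control mean of UBE2B was 5.49 times the level of 3 counts in the shallower SIRT6-inhibited library. That ratio leaves out the spread between libraries and is no lower limit of the difference. The 95% interval of the fitted log2 fold change of UBE2B ran from -14.7 to -0.05 (edgeR adjusted p = 0.546). Its unadjusted p-value was 0.05 or above in 8 of 10 other fits. SIRT6 itself, whose activity the inhibitor targets, had 0 and 42 counts in control and 52 and 57 in SIRT6-inhibited libraries, with a 95% interval of the log2 fold change from -3.41 to 5.91.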

How the data were processed

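For each library the authors deposited whole-number counts by gene symbol, not normalized, from 150-bp paired-end reads. The submitters' processing notes name TopHat2 2.0.13, Cufflinks 2.2.1, Cuffnorm, Cuffdiff and the builds susScr11 and mm10, with no role for any. Counting tool, annotation and strand setting are not given in the sources used here. All 21 members matched the porcine RefSeq annotation of Sscrofa11.1, the assembly that susScr11 names, and 6 overlap another gene there. Positions describe the genes and may differ from the intervals counted.

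Statistics were computed in R (4.3.3), with edgeR (4.0.16) as the principal tool and limma (3.58.1) and DESeq2 (1.42.0) as alternatives. Genes were kept by filterByExpr (minimum count 10, minimum total 15), scaled by TMM, and tested over the whole table by the quasi-likelihood method of edgeR, with Benjamini-Hochberg adjustment over all 2387 tested genes. Standard errors are the absolute log2 fold change divided by the square root of F, and 95% intervals use the t quantile. A count of 0 allows up to 3 counts. The procedure was tested on simulated data. The rule for named genes took PCNA, members with an unadjusted p-value under 0.05, members at least 2-fold apart without overlap, the 15 members with the highest mean level and the 2 highest of each role. RAD52, ATM, POLD2 and RFC3 fall outside it and were described after their values were seen. Members, lists and rules were chosen with earlier results of these data known. Of the 21 members, 3 count in the totals and are not reported singly here. Promoter and protein sequence features were not analysed here.

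Alternatives were RLE scaling, library totals only, no filter on low counts, a minimum of 10 counts per library, a block for replicate number, DESeq2, limma-voom and leaving out each library. Added after seeing the data were the crossed replicate block, calls after adjustment over all genes by each tool, non-overlap under other scalings and the fits of SPO11 and UBE2B.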

Additional observations from a re-analysis of the deposited data

How the results depend on the processing

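With 2 libraries per group, depth and spread limit every gene with few counts, and without a library its group's lone library was assumed to vary like the other group. TOP2A kept its direction in 12 of 12 alternatives. These refit the counts by which TOP2A was singled out, so they are no independent support. Of 217 fits of other members, which refit the same counts and are not independent, 19 changed sign. Each fit with all 4 libraries had 1 member lower, TOP2A, and 0 higher at an unadjusted p-value under 0.05. Between 176 and 260 of all tested genes passed that threshold in those fits. Other members passed it only in fits that left out a SIRT6-inhibited library. Causes were not tested, except that a stricter filter tests fewer genes.

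No source says whether libraries with the same replicate number were made together, and the correlation of their deviations was -0.123. With 2 libraries per group the crossed pairing gives the same value with opposite sign, so it does not settle the pairing. All tested genes with an adjusted p-value under 0.05 numbered 0 in edgeR, where 216 had an unadjusted one, but 43 with no filter, 2 with at least 10 counts in every library, 6 with the replicate block as a paired design and 37 in DESeq2. With the crossed replicate block, added after seeing the data, they numbered 2. Members with an adjusted p-value under 0.05 numbered 1 with no filter. The median log2 fold change of members was 0.0138 under that stricter filter. The log2 fold change of PCNA was 0.0157 with RLE scaling, 0.000635 under the stricter filter and 0.0156 in DESeq2, and that of RPA2 was -0.0371 with library totals only.

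Leaving out each library in turn gave 111 to 302 genes at an unadjusted p-value under 0.05 and 0 to 77 at an adjusted one. Members numbered 1 to 3 lower, 0 to 1 higher and 0 to 1 adjusted, with a median from -0.203 to 0.0154. The fitted value ran from -8.04 to -1.78 for PRIM1 and from -8.19 to -0.0481 for ERCC1, and the lowest value of each stands against a lone library with 0 counts and is no measure of size. The log2 fold change ran from -3.18 to -0.179 for RFC3, 0.295 to 1.24 for ATM, -0.386 to 0.493 for LIG3, -0.00493 to 0.696 for MSH5, -0.0782 to 0.0621 for PCNA, -1.03 to 0.394 for POLD2, -0.698 to 0.0903 for POLD3, -1.12 to 0.0243 for RAD18, -0.0896 to 0.129 for RPA2, -0.0322 to 0.241 for TOP2B and -0.0345 to 0.161 for XRCC6.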
